A study of Mus musculus with 8 samples.

Results

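The 159 microRNA genes described here were those that read at or above a mean log2 level of 3.9 over 8 mouse arrays, of 478 microRNA genes on the array with a probe set that the platform annotation ties to 1 symbol. The symbol had to be Mir followed by a digit or by let, host transcripts with an hg ending were left out, and where a gene had several such probe sets the one with the highest mean was kept. The genes were thus chosen by their mean level, and levels are given as a description and without a test. The other 319 microRNA genes lay under the threshold. Mir3080 and Mir219a-1 were just inside it, at means of 3.901 and 3.902, and Mir3060 and Mir497 just outside, at 3.866 and 3.864.

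The arrays came from a transfer model of colitis, in which naive T cells given to mice without T and B cells expand and inflame the gut. CD4+CD62L+ T cells of Irak1-/- mice, marked by CD45.2, and of wt mice, marked by CD45.1, were mixed in equal amounts and given to Rag1-/- recipients. Both kinds are on the C57BL/6 strain, per the labels, and neither age nor sex is given. The CD3+CD4+ cells of each kind were sorted from the mesenteric lymph nodes 14 days later, at a purity above 99.5%, and 2 recipients were pooled for each experiment. There are 4 Irak1-/- and 4 wt arrays in 4 batches, each batch holding 1 array of each genotype from the same recipients. Cells of both kinds had thus been through the same Rag1-/- hosts. IRAK1 is a kinase that carries signals from IL-1 family and Toll-like receptors to NF-kappaB. The genotype comparison sets cells without it beside wt cells from the same recipients. Genotype goes with the CD45 marker on every array, so differences from either cannot be told apart.

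A microRNA gene is transcribed as a long primary RNA, or within the intron of a host gene. Drosha and DGCR8 cut out a hairpin in the nucleus, Dicer trims it to a short duplex, and 1 strand is loaded into an Argonaute protein. The loaded strand finds messenger RNAs mainly through its seed, bases 2 to 8, and lowers their translation and stability. In T cells, microRNAs are known for setting receptor sensitivity, proliferation and effector fate. The array is not stated to separate primary transcript, hairpin and mature microRNA, so a reading stands for the RNA that its probe set binds. In sorted bulk cells, fewer cells holding an RNA and less of it per cell cannot be told apart.

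The mature sequences below, from RefSeq, build GRCm38.p6, belong to 7 of the 8 microRNA genes with the smallest p values between genotypes. The other gene, Mir1949, was left out of the sequence set, which does not show that it lacks an entry. They are written 5′ to 3′ with the seed in capitals.
mmu-miR-365-3p: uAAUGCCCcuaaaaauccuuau
mmu-miR-15a-5p: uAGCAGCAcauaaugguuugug
mmu-miR-101c: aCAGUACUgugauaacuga
mmu-miR-1981-5p: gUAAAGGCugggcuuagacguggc
mmu-miR-202-3p: aGAGGUAUagcgcaugggaaga
mmu-miR-505-3p: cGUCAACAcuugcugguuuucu
mmu-miR-1898: aGGUCAAGguucacaggggauc
They map to chr16:13453895-13453916 on the plus strand, chr14:61632075-61632096 on the minus strand, chr9:3038680-3038698 on the minus strand, chr1:184822465-184822488 on the minus strand, chr7:139957695-139957716 on the minus strand, chrX:60394416-60394437 on the minus strand and chr15:12171502-12171523 on the plus strand. Mir365-1 lies within Gm53058 and Gm32817, Mir15a within the noncoding gene Dleu2, Mir1981 within Mtarc2 and Mir1898 within Zfr, each on the same strand. No 2 of these 7 sequences share a seed.

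The next set shows families that share a seed, whose members are read side by side further on.
mmu-miR-16-5p: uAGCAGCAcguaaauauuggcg
mmu-miR-17-5p: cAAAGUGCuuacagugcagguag
mmu-miR-20b-5p: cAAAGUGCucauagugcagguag
mmu-miR-181c-5p: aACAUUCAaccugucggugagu
mmu-miR-181d-5p: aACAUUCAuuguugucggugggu
mmu-let-7a-5p: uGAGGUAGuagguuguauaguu
mmu-let-7g-5p: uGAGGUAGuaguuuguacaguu
mmu-miR-103-3p: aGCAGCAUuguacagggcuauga
mmu-miR-107-3p: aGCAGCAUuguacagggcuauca
mmu-miR-194-5p: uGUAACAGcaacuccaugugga
mmu-miR-680: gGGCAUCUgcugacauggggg
mmu-miR-142a-3p: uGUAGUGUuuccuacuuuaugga
The seed AGCAGCA of miR-16 is also that of miR-15a above. The miR-17 and miR-20b sequences share AAAGUGC, both miR-181 sequences share ACAUUCA, both let-7 sequences share GAGGUAG, and miR-103 and miR-107 share GCAGCAU. Mir194-1 and Mir194-2 give the same mature miR-194-5p, and Mir680-1, Mir680-2 and Mir680-3 give the same miR-680. The miR-142a-3p sequence stands alone and is shown because its gene marks blood cells. In all, mature sequences were used for 132 of the 159 genes, with 214 mature sequences, and 12 seeds were shared between these genes, over 21 genes. A gene outside this set may still have an entry, so these counts hold only for the sequences used.

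The readings of the 159 genes ran from 3.901 to 11.01 with a median of 5.15, while array medians over all probe sets lay between 4.25 and 4.31. A mean under 5 was found for 73 genes, 66 lay from 5 to 7 and 20 were at 7 or more. In 96 genes every one of the 8 arrays was above the highest array median, and in 36 at least 1 array read under 3.9, so the label "detected" holds for them only as a mean. The 10 highest readings were those of Mir449b, Mir5099, Mir703, Mir680-2, Mir692-1, Mir761, Mir5125, Mir466h, Mir1195 and Mir1956. Probe sets differ in how well they bind, so the order of these readings is not an order of abundance. For the 10 genes, Irak1-/- minus wt lay between -0.19 and 0.36 on the log2 scale, with adjusted p values from 0.779 to 0.943 in limma's fit over all genes. Mir449b, whose family is known from ciliated epithelium, read 10.86, 10.97, 10.84 and 10.97 in Irak1-/- arrays 1 to 4, against 10.96, 11.18, 11.20 and 11.06 in wt arrays 1 to 4. Each Irak1-/- array was below its own wt partner, and the groups overlapped slightly at the edge, with a difference of -0.19 (SE 0.108, adjusted p = 0.8293).

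The hairpins of the genes at or above the threshold had a median GC content of 52.9% (quartiles 46.3% and 60.6%, n = 121), against 46.2% (41.8% and 52.7%, n = 279) for those under it. This is a description, without a test. Of 135 genes with a known strand, 51.9% lay inside another gene on the same strand, against 49.1% of 291 genes under the threshold. The genes came from 20 chromosomes, with 20 on chromosome 2, 19 on chromosome 12 and 9 on X.

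Among all 13308 genes tested, the Irak1-/- array of replicate 3 stood apart. It correlated with the other arrays at 0.957 to 0.970, against 0.976 to 0.986 among the other 7, and over the microRNA genes at 0.875 to 0.928, against 0.922 to 0.968. It was the highest or lowest of 8 for 68 of the 159 microRNA genes (42.8%), against 45.2% of all genes tested. The Irak1 probe set read 6.93, 6.83, 6.997 and 6.61 in Irak1-/- arrays 1 to 4, against 7.16, 6.89, 6.64 and 6.39 in wt arrays 1 to 4, a difference of 0.069 (SE 0.129, adjusted p = 0.953). No label says where its probes lie relative to the deleted part, so it does not check the labels, and the groups are named as labelled. T cell markers had a mean difference of -0.04 over 9 genes. Markers of myeloid cells were higher in all 4 Irak1-/- arrays than in their partners, by 1.11 on average over 19 genes (pairs 0.73 to 1.31). Their summed linear level was 2429 to 3556 in Irak1-/- arrays and 1689 to 1881 in wt arrays, 4 of 18 tested were called higher, and none read 0 on any array. Of the 19, 12 were higher in all 4 pairs, while Itgax, an integrin of dendritic cells, was lower in all 4, at -0.59 (SE 0.173, adjusted p = 0.501), and Cst3 differed by -0.0052 (SE 0.142, adjusted p = 0.996). Lyz2, a lysozyme that macrophages and neutrophils make, read 7.34, 7.30, 8.78 and 8.58 in Irak1-/- arrays 1 to 4, against 4.59, 2.34, 4.33 and 4.10 in wt arrays 1 to 4, a difference of 4.16 (SE 0.302, adjusted p = 0.00161). Markers of NK, innate lymphoid and CD8 T cells were lower in all 4 Irak1-/- arrays than in their partners, by 0.23 on average over 10 genes. Of the 9 tested, 6 were lower and 3 higher, by up to 0.31. In limma's fit 5 of the 9 (55.6%) were lower at an unadjusted p under 0.05, against 3.82% of all genes tested. None was higher at that p, against 2.88%, and none was called. Summed over the 10 genes, the linear level was 2854 to 3846 in Irak1-/- arrays and 3940 to 4524 in wt arrays. Markers of B cells (9 genes) were lower in all 4 pairs too, at -0.08, and those of stroma, endothelium and epithelium (12 genes) differed by -0.07. The part of these cells or transcripts in the differences given below was not tested.

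Between genotypes, no microRNA gene passed the threshold. The count called was 0 of 159 at an adjusted p under 0.05 by limma, where 10 of 13308 genes (0.0751%) were called, 0.0676% higher and 0.00751% lower, and the lowest adjusted p of a microRNA gene was 0.171. At an unadjusted p under 0.05 there were 24 microRNA genes (15.1%), against 6.70% of all genes tested. Of these, 15 were higher in Irak1-/- arrays, where 2.88% of all genes were, and 9 were lower, where 3.82% were. At an unadjusted p under 0.01 there were 13 (8.18%), against 1.88%. These counts, and those of wide differences and of pairs below, include genes with a mean of 3.9 or more in only 1 genotype. Mir365-1 and Mir143, given below, are among them. For such genes the level rule and the difference are not independent. Without the pairing the count at an unadjusted p under 0.05 was 15 of 159 (9.43%), against 5.09% of all genes.

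Differences of microRNA genes were wider than those of other genes but had no common direction. Their median was 0.0085, with 80 above 0 and 79 below, and the median over all genes was -0.03. The median size without its sign was 0.18, against 0.096 over all genes, and the median SE was 0.148, against 0.124. A difference of over 0.5 in size was found for 15 (9.43%), 9 of them higher in Irak1-/- arrays, against 1.58% of all genes. The same direction in all 4 pairs was found for 29 (18.2%), against 14.2% of all genes, 15 being higher (background 5.26%) and 14 lower (background 8.91%). No test compared these widths or shares.

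**Figure D1:**
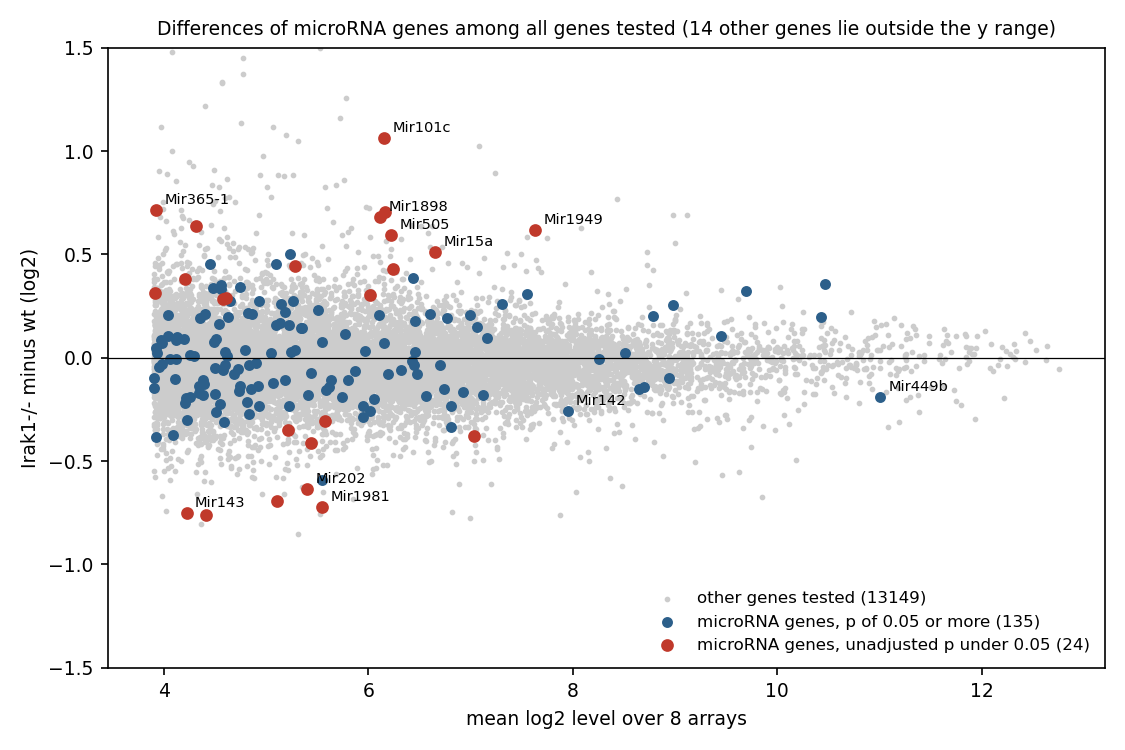
Irak1-/- minus wt (log2, fitted with pairs) against the mean log2 level over 8 arrays, for the microRNA genes and for the other 13149 genes tested (grey, of which 14 lie outside the drawn range). Red points are the 24 microRNA genes with an unadjusted p under 0.05, which lie both above and below 0, and no microRNA gene passed the adjusted threshold.

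The 8 genes with the smallest p values are given in full. Mir365-1, which lies beside Mir193b on chromosome 16, read 3.66, 4.16, 4.52 and 4.77 in Irak1-/- arrays 1 to 4, against 2.79, 3.39, 3.60 and 4.49 in wt arrays 1 to 4. Every Irak1-/- array was above its partner, both genotypes were lowest in batch 1 and highest in batch 4, and the groups overlapped. Its mean was 4.28 in Irak1-/- and 3.57 in wt arrays, so it passed the 3.9 level only through the Irak1-/- arrays. The difference was 0.71 (SE 0.133, adjusted p = 0.171), with a 95% interval of 0.41 to 1.02. Mir193b differed by -0.0041 (SE 0.170, adjusted p = 0.997). Mir15a belongs to the miR-15/16 family, which is known to restrain cyclins and BCL2. It read 7.06, 6.39, 7.49 and 6.70 in Irak1-/- arrays 1 to 4, against 6.35, 5.88, 7.12 and 6.24 in wt arrays 1 to 4. All 4 pairs ran the same way, while batch 3 was high and batch 2 low in both genotypes, so the groups overlapped. The difference was 0.51 (SE 0.110, adjusted p = 0.289), with an interval of 0.26 to 0.76.

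Mir101c read 6.56, 6.81, 6.45 and 6.91 in Irak1-/- arrays 1 to 4, against 5.35, 4.78, 5.99 and 6.36 in wt arrays 1 to 4. The Irak1-/- arrays lay close together, the wt arrays were spread over a wide range with the lowest in batch 2, and the groups did not overlap. At 1.06 (SE 0.235, adjusted p = 0.318) this was the widest difference among the 159 genes, a fold of 2.09 with an interval of 0.53 to 1.60 on the log2 scale. Mir1949 read 7.65, 7.99, 8.31 and 7.81 in Irak1-/- arrays 1 to 4, against 7.05, 7.55, 7.33 and 7.35 in wt arrays 1 to 4. Its groups did not overlap either, and the difference was 0.62 (SE 0.125, adjusted p = 0.244).

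Mir505, on the X chromosome, read 6.37, 5.98, 7.10 and 6.62 in Irak1-/- arrays 1 to 4, against 5.75, 5.92, 6.17 and 5.86 in wt arrays 1 to 4. All pairs ran the same way, batch 2 by very little, and Irak1-/- array 2 was below the highest wt array. The difference was 0.59 (SE 0.150, adjusted p = 0.404). Mir1898 read 6.18, 6.49, 6.89 and 6.26 in Irak1-/- arrays 1 to 4, against 5.11, 6.38, 5.81 and 5.80 in wt arrays 1 to 4. Again each Irak1-/- array was above its partner, with wt array 2 inside the range of the Irak1-/- arrays, and the difference was 0.68 (SE 0.173, adjusted p = 0.404).

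Mir1981 and Mir202 ran the other way. Mir1981 read 5.59, 5.45, 4.95 and 4.75 in Irak1-/- arrays 1 to 4, against 5.71, 6.08, 5.98 and 5.86 in wt arrays 1 to 4. The wt arrays were close together, the Irak1-/- arrays all lay below them, and the difference was -0.72 (SE 0.167, adjusted p = 0.348). Mir202, known from the gonads, read 5.58, 5.28, 4.62 and 4.86 in Irak1-/- arrays 1 to 4, against 5.91, 5.67, 5.77 and 5.52 in wt arrays 1 to 4. Each Irak1-/- array was below its partner, while Irak1-/- array 1 was just above wt array 4, and the difference was -0.64 (SE 0.150, adjusted p = 0.370). A gene on the opposite strand, Gm16201, overlaps Mir202, and whether the probes tell the strands apart was not tested.

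**Figure D2:**
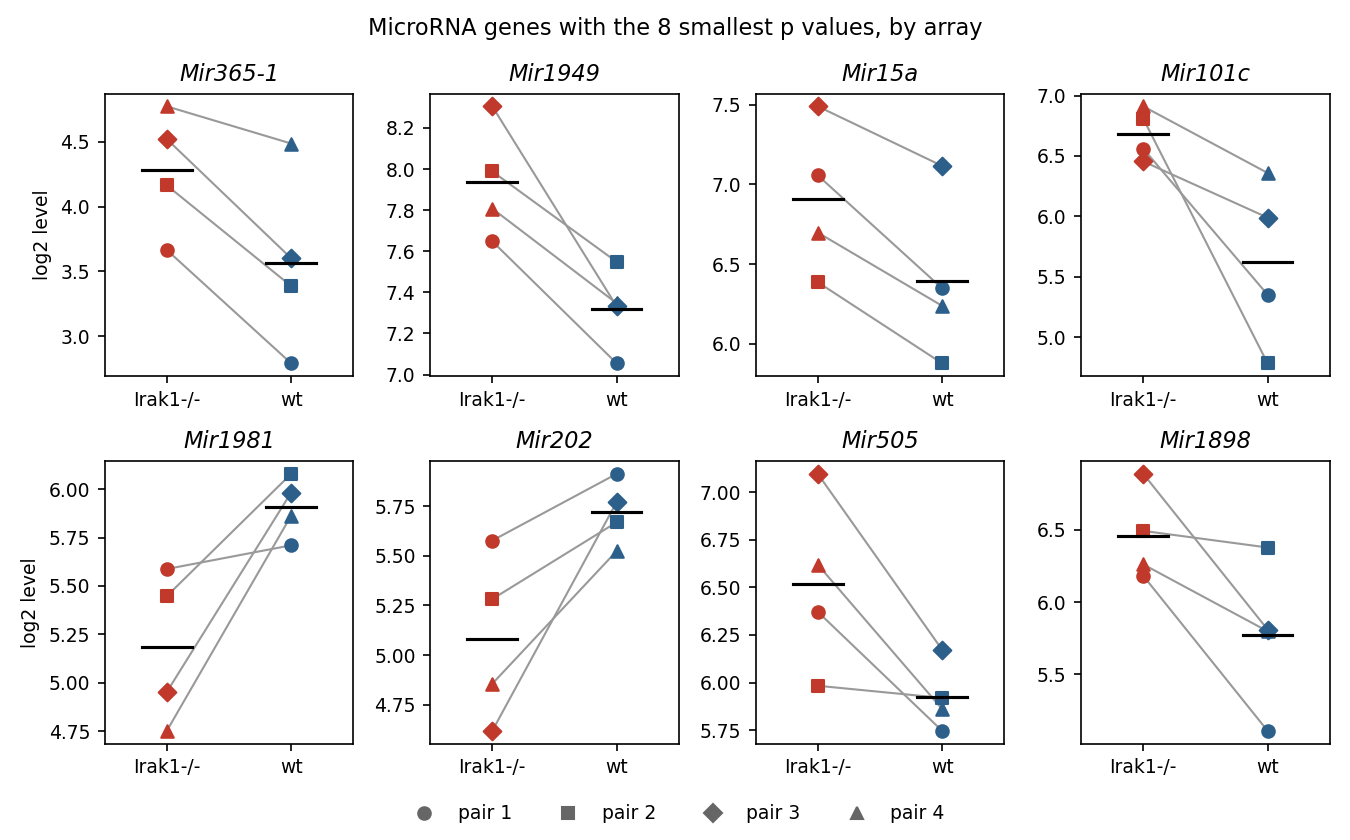
Log2 level of the microRNA genes with the 8 smallest p values on each array, Irak1-/- left and wt right, with each panel on its own axis. Lines join the arrays of a pair and bars are means of 4. All 4 lines run the same way in every panel, 6 genes being higher and 2 lower in Irak1-/- arrays.

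The other 16 genes at an unadjusted p under 0.05 had differences between -0.76 and 0.70 and adjusted p values of up to 0.741. Groups that did not overlap were found for 7 of the 159 (4.40%), against 3.04% of all genes tested, and all 7 are among the 24. Beside Mir101c, Mir1949 and Mir1981 those were Mir143, Mir466b-2, Mir1963 and Mir344d-2, the last 3 of which are named here after their values were seen. Mir143, known from smooth muscle, read 3.41, 3.97, 3.897 and 4.11 in Irak1-/- arrays 1 to 4, against 4.95, 4.48, 4.67 and 4.29 in wt arrays 1 to 4. It was below its partner in every Irak1-/- array, with a difference of -0.75 (SE 0.199, adjusted p = 0.448), which was -0.49 without replicate 1. Its mean was 3.85 in Irak1-/- and 4.60 in wt arrays, so it passed the 3.9 level only through the wt arrays. Mir494 had the most negative difference and was also picked after its values were seen, at -0.76 (SE 0.199, adjusted p = 0.426), with 3 of 4 pairs lower. Mir1941, picked likewise, read 3.84, 3.99, 6.44 and 4.26 in Irak1-/- arrays 1 to 4, against 3.66, 4.01, 4.57 and 3.73 in wt arrays 1 to 4. Irak1-/- array 3 stood far above the other 7 arrays, and the difference was 0.64 (SE 0.270, adjusted p = 0.737), which was 0.23 without replicate 3. The remaining 135 genes, at an unadjusted p of 0.05 or more, had differences between -0.59 for Mir1927 and 0.50 for Mir677, both named after their values were seen.

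MicroRNA genes were read as lists, of genes known from T cells, of wider families and of genes known from other cell types. Of 86 listed microRNA genes with a probe set of their own, 25 were at or above the threshold and none was called, the background being 0.0751% of genes tested. The list of other cell types gave 19 of the 86 and 5 of the 25. In the blood and lymphocyte list, 5 of 16 were above the threshold. None of these 5 had an unadjusted p under 0.05, and their median difference was -0.14 against -0.03 for all genes. Mir142, a gene of the blood lineages, read 7.95, 7.85, 7.49 and 7.99 in Irak1-/- arrays 1 to 4, against 7.83, 8.10, 7.97 and 8.41 in wt arrays 1 to 4. In 3 of 4 pairs Irak1-/- was lower, the groups overlapped, and the difference was -0.26 (SE 0.128, adjusted p = 0.792). Mir150, which represses Myb in lymphocytes, averaged 4.01 ± 0.159 in Irak1-/- and 3.93 ± 0.264 in wt arrays, a difference of 0.085 (SE 0.131, adjusted p = 0.9496). Mir181c and Mir181d, of the family that raises T cell receptor sensitivity by lowering phosphatases, differed by 0.12 (SE 0.113, adjusted p = 0.918) and -0.14 (SE 0.218, adjusted p = 0.9496). The other Mir181 genes lay under the threshold and are given after their values were seen, from limma's fit without the level filter. Mir181b-2 differed by -0.50 (SE 0.127, adjusted p = 0.631) and Mir181a-2 by -0.42 (SE 0.122, adjusted p = 0.676), both lower in 4 of 4 pairs. Mir181a-1 differed by 0.070 (SE 0.166, adjusted p = 0.982) and Mir181b-1 by 0.23 (SE 0.126, adjusted p = 0.894). Mir128-1, which lies in R3hdm1, differed by -0.37 (SE 0.187, adjusted p = 0.792), and its lowest reading was Irak1-/- array 3.

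The 17-92 cluster and its copies promote T cell proliferation and survival, and 3 of 10 with a probe set were above the threshold. Mir17 read 5.48, 5.71, 4.71 and 5.73 in Irak1-/- arrays 1 to 4, against 5.48, 5.01, 5.79 and 5.65 in wt arrays 1 to 4. Irak1-/- array 3 was the lowest of all 8 and the other arrays mixed, giving a difference of -0.073 (SE 0.240, adjusted p = 0.977). Without replicate 3 the sign turned, to 0.26. Mir18, from the same primary transcript, differed by 0.21 (SE 0.201, adjusted p = 0.918), and Mir20b, from the copy on the X chromosome, by 0.19 (SE 0.106, adjusted p = 0.814) with all 4 pairs higher in Irak1-/-. The miR-15/16 family had 2 of 6 above the threshold. Beside Mir15a, Mir16-2 read 5.15, 5.26, 4.63 and 4.68 in Irak1-/- arrays 1 to 4, against 4.55, 5.32, 4.48 and 4.497 in wt arrays 1 to 4. Both are positive, but wt array 2 was far above the other wt arrays, and the difference was 0.22 (SE 0.130, adjusted p = 0.858).

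Genes induced on lymphocyte activation or by NF-kappaB had 4 of 14 above the threshold, none at an unadjusted p under 0.05. Mir210, a gene of the hypoxia response, read 5.67, 5.69, 6.01 and 5.99 in Irak1-/- arrays 1 to 4, against 5.70, 5.73, 6.01 and 6.18 in wt arrays 1 to 4. The pairs tracked each other closely, all 4 a little lower in Irak1-/-, with a difference of -0.064 (SE 0.104, adjusted p = 0.9501) and an interval of -0.30 to 0.17. Mir212, of a pair induced by CREB, differed by 0.021 (SE 0.137, adjusted p = 0.990), Mir31 by -0.22 (SE 0.273, adjusted p = 0.942) and Mir9-3 by -0.11 (SE 0.133, adjusted p = 0.942). Mir146, the gene of miR-146a, whose microRNA targets Irak1 and Traf6 in a loop that damps NF-kappaB, lay under the threshold and is given because of that link. It read 3.41, 3.06, 2.94 and 4.20 in Irak1-/- arrays 1 to 4, against 3.53, 4.56, 4.56 and 3.99 in wt arrays 1 to 4. Batches 2 and 3 were lower in Irak1-/-, batch 1 slightly lower and batch 4 slightly higher, and a fit without the level filter gave -0.76 (SE 0.301, adjusted p = 0.8003). Mir155 was read only by a probe set shared with its host Mir155hg, where the difference was 0.059 (SE 0.268), and Mir21a only by one shared with Vmp1, at 0.039 (SE 0.135).

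Let-7, a brake on proliferation, had 2 of 12 above the threshold, and they pointed opposite ways, Mirlet7a-1 at -0.26 (SE 0.159, adjusted p = 0.861) and Mirlet7g at 0.21 (SE 0.138, adjusted p = 0.866). In the clusters of miR-23, miR-27 and miR-24, known to restrain helper T cell differentiation, all 3 with a probe set were above the threshold. Mir23a differed by -0.15 (SE 0.241, adjusted p = 0.9496), Mir27a of the same transcript by -0.27 (SE 0.196, adjusted p = 0.887), and Mir23b by 0.34 (SE 0.175, adjusted p = 0.802). Mir30d, the only 1 of 6 of its family, differed by -0.076 (SE 0.184, adjusted p = 0.963). Genes known from other cell types had 5 of 19 above the threshold. Apart from Mir143 these were Mir200a of epithelium, Mir133b of muscle, Mir124a-2 of neurons and Mir99b, and they differed by 0.046, -0.12, 0.089 and -0.18, none with an adjusted p under 0.875.

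**Figure D3:**
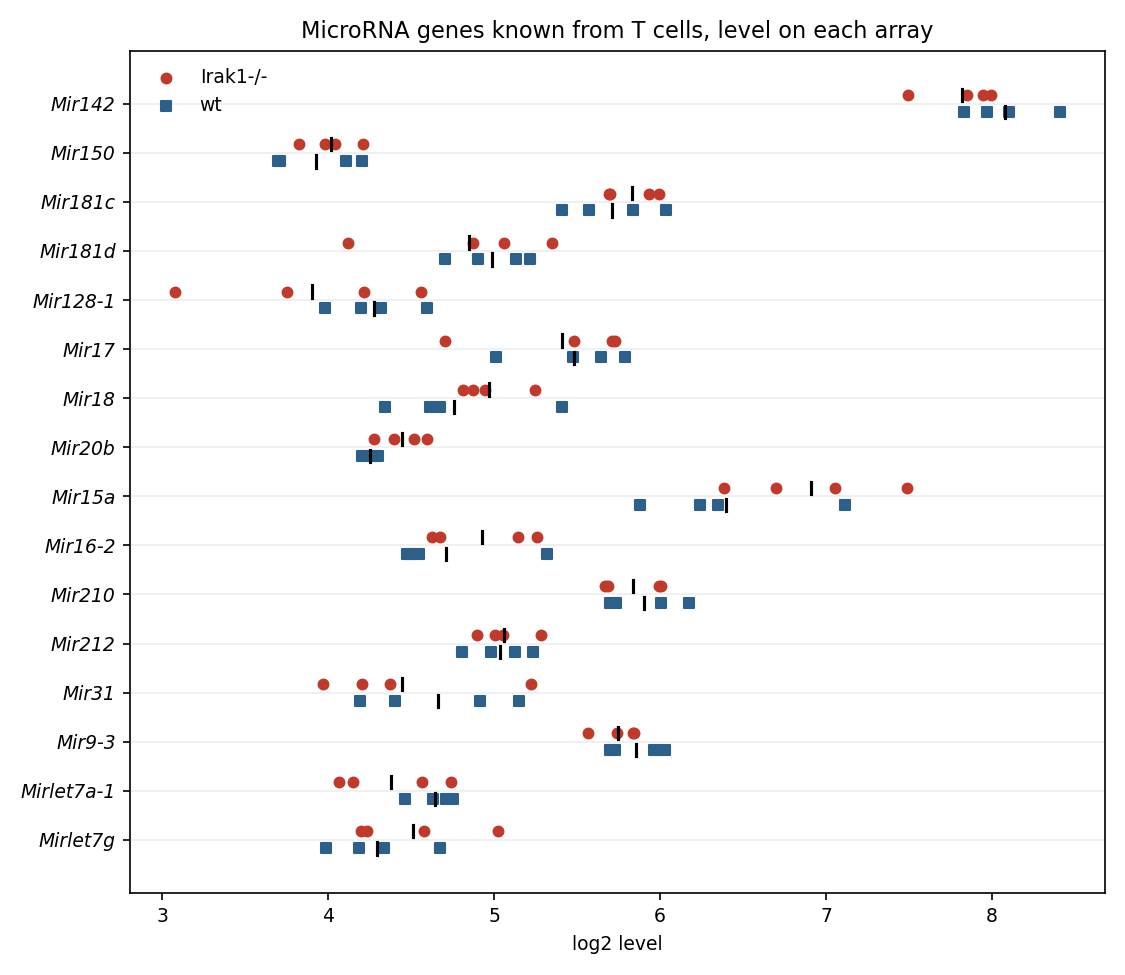
Log2 level on each array for 16 microRNA genes of the lineage, 17-92, miR-15/16, activation and let-7 lists, Irak1-/- (circles) above wt (squares), with bars at means of 4. The groups overlap in every row, and Mir15a is the gene of this set with the smallest p. Positions of different genes on the axis are not comparable as abundance.

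No gene of a family with a shared seed was called. Mir680-1, Mir680-2 and Mir680-3, which give the same mature sequence from 3 chromosomes, were all positive, at 0.70 (SE 0.186, adjusted p = 0.448), 0.32 (SE 0.165, adjusted p = 0.798) and 0.039 (SE 0.193, adjusted p = 0.985). Near-identical copies can share probe signal, so these are not 3 independent readings. Mir103-2 read 6.80, 6.61, 7.22 and 6.76 in Irak1-/- arrays 1 to 4, against 7.22, 7.07, 7.69 and 6.90 in wt arrays 1 to 4. All 4 pairs were lower in Irak1-/-, with a difference of -0.38 (SE 0.111, adjusted p = 0.505). Mir107 differed by -0.17 (SE 0.248, adjusted p = 0.948) with 2 of 4 pairs lower. Mir194-1 and Mir194-2 were both negative, at -0.41 (SE 0.128, adjusted p = 0.552) and -0.14 (SE 0.154, adjusted p = 0.936), while Mir7-1 differed by -0.31 (SE 0.177, adjusted p = 0.833) and Mir7b by 0.040 (SE 0.323, adjusted p = 0.992). Mir149 with Mir1943 and Mir674 with Mir3473d share a seed without a family name, and these 4 genes differed by -0.15 to -0.018.

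There were 7 groups of genes within 50000 bases of the next, with 34 members. The cluster on chromosome 2, of Mir297, Mir466, Mir467 and Mir669 genes, had 12 members, of which 10 were positive, against 41.9% of all genes tested, with a median of 0.21 and a range of -0.04 to 0.43. By pair, the median was 0.33, 0.29, 0.03 and -0.08, highest in pairs 1 and 2, and 2 of the 12 (16.7%) had an unadjusted p under 0.05, against 6.70% of all genes. These genes are near copies of each other, and Mir466b-2 alone is served by 7 probe sets. The imprinted region of chromosome 12 had 12 members in 2 groups, 5 positive and 7 negative, with a median of -0.07. On chromosome 8, Mir181c, Mir181d, Mir23a and Mir27a ran from -0.27 to 0.12, with a pair median of -0.66 in pair 3 and 0.07 to 0.25 in the others. On chromosome 13, Mir449a differed by 0.45 (SE 0.228, adjusted p = 0.792) where Mir449b was negative.

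**Figure D4:**
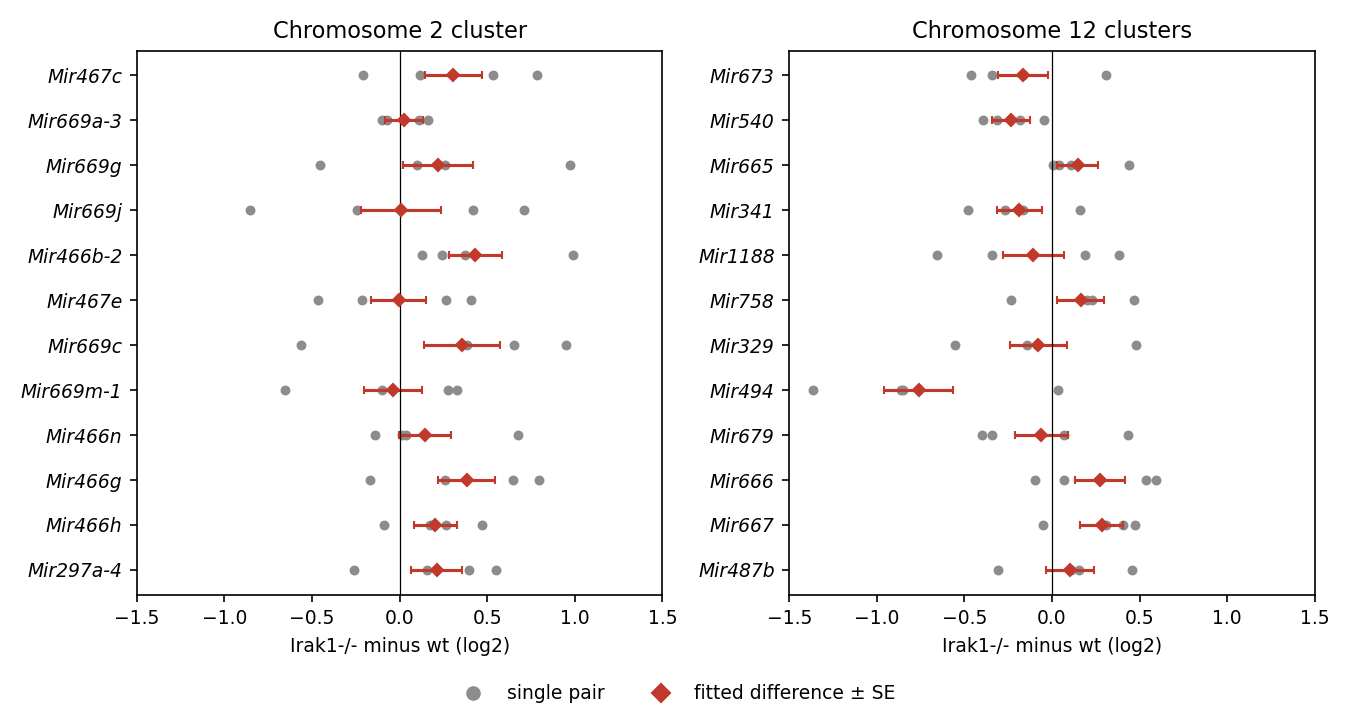
Irak1-/- minus wt (log2) for the 12 genes of the chromosome 2 cluster and the 12 genes of the chromosome 12 region, in genomic order. Grey points are single pairs and red diamonds the fitted difference with its SE. Single pairs spread over both sides of 0 for most genes, and 10 of the 12 chromosome 2 genes have a fitted difference above 0.

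A host gene and the microRNA gene inside it can share a primary transcript. For 50 microRNA genes the host on the same strand was also tested, and 24 of the pairs had the same sign. Across these 50 pairs the correlation of the differences was 0.023, a description over genes that share arrays and are not independent replicates. Host differences ran from -0.42 to 0.22 and those of the microRNA genes from -0.72 to 0.68. No host was called, and 2 of 50 (4%) had an unadjusted p under 0.05, against 6.70% of all genes. Mir15a at 0.51 lay in Dleu2 at 0.066 (SE 0.115), Mir1898 at 0.68 in Zfr at 0.062 (SE 0.105), and Mir1981 at -0.72 in Mtarc2 at -0.0048 (SE 0.110). Mir449a lay in Cdc20b, which differed by -0.42 (SE 0.168) against 0.45 for the microRNA gene. The difference between a microRNA gene and its host was not tested.

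**Figure D5:**
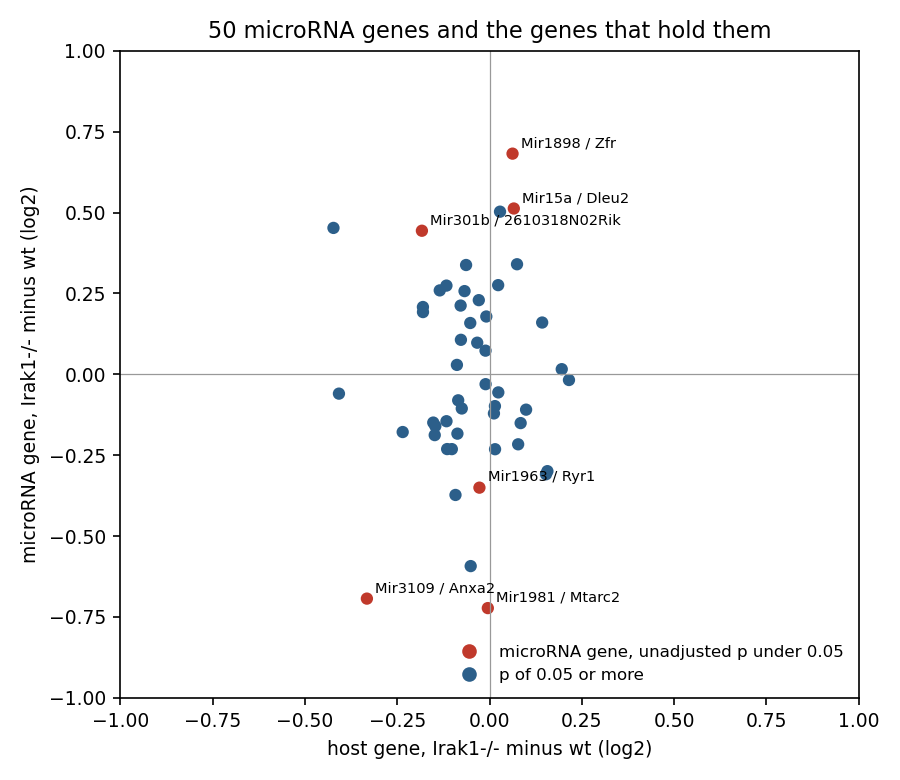
Irak1-/- minus wt (log2) of 50 microRNA genes against that of the gene that holds them on the same strand. Hosts span -0.42 to 0.22, microRNA genes -0.72 to 0.68, and red points are microRNA genes with an unadjusted p under 0.05.

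Of 24 tested genes that make, load and serve microRNAs, none was called, the median difference was -0.10 against -0.03 for all genes, and the range was -0.32 to 0.14. Drosha averaged 6.19 ± 0.195 in Irak1-/- and 6.29 ± 0.127 in wt arrays, Dicer1 7.31 ± 0.110 in Irak1-/- and 7.32 ± 0.152 in wt arrays and Ago2 7.93 ± 0.298 in Irak1-/- and 7.85 ± 0.179 in wt arrays (SD, n = 4). Ago3, a further Argonaute, read 5.88, 5.71, 5.70 and 5.67 in Irak1-/- arrays 1 to 4, against 6.05, 6.05, 6.06 and 6.07 in wt arrays 1 to 4. Its groups did not overlap, the wt arrays were nearly identical, and the difference was -0.32 (SE 0.106, adjusted p = 0.603). Of the listed host transcripts, 0 of 24 were called, and Ctdsp1 and Ppargc1b had the smallest p values, at -0.31 (SE 0.105, adjusted p = 0.603) and -0.26 (SE 0.112, adjusted p = 0.746).

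Published targets of T cell microRNAs had 0 of 25 called and 4 at an unadjusted p under 0.05 (16%), against 6.70% of all genes, 2 being higher (background 2.88%) and 2 lower (background 3.82%). Ifng, the Th1 cytokine that miR-29 represses, read 8.59, 8.54, 7.60 and 7.97 in Irak1-/- arrays 1 to 4, against 9.11, 8.65, 8.50 and 8.92 in wt arrays 1 to 4. Each Irak1-/- array was below its partner, the groups overlapped only through Irak1-/- arrays 1 and 2, and the difference was -0.62 (SE 0.152, adjusted p = 0.404). Dusp5, a phosphatase lowered by miR-181, differed by -0.30 (SE 0.128, adjusted p = 0.739). Socs1, a target of miR-155 that damps cytokine signals, was higher in all 4 pairs, at 0.27 (SE 0.108, adjusted p = 0.708). Spi1, also a target of miR-155, encodes the myeloid factor PU.1 and stood on the myeloid marker list too, at 0.42 (SE 0.122, adjusted p = 0.493).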

How the data were processed

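Per array, the authors deposited 41345 probe set levels on the log2 scale, for 8 arrays. The labels' protocols give total RNA by TRIzol, biotin label and the standard protocol of the maker, while the background correction, summary and normalization steps are not stated. Values ran from 0.681 to 14.0. Platform annotation gave 1 symbol for 23521 probe sets, several for 1814 and none for 16010, and symbols were updated through the GRCm38.p6 gene table, used for names and neighbours. Per gene, the probe set with the highest mean was kept (22180 genes), and genes with a mean under the 40th percentile were left out, leaving 13308. All 159 microRNA genes were among them.

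The genotype difference was fitted by lmFit and eBayes of limma 3.58.1 (R 4.3.3), with batch as a fixed block, two-sided, adjusted by Benjamini-Hochberg over 13308 genes, and called at an adjusted p under 0.05. Differences are Irak1-/- minus wt. The pairing rests on the batch label and shared recipients, and deviations from group means correlated at 0.185, 0.143, 0.200 and 0.080 within pairs. The arrays are replicate experiments with 2 recipients pooled. The fit was tested on simulated data. Counts and depths do not exist for arrays, so 4 arrays a group limit the precision.

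Named genes are the 8 with the smallest p, the 10 highest readings, those next to the threshold, the detected genes of the lists, families or shared transcripts set side by side, and, for other lists, genes with the smallest p. Any other gene is named as chosen after its values were seen. The microRNA genes and lists were chosen with earlier results of these data known. Alternatives were other blocks, normalizations, filters, probe set rules and variance settings, each pair left out, and other level thresholds. The counts at an unadjusted p and of listed genes under these alternatives were added after the data were seen. A probe set in doubt, with several symbols, was not used except where named.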

Additional observations from a re-analysis of the deposited data

Results flagged for a closer look

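For 65 microRNA genes, 130 groups of 4 arrays were screened for an array far from the other 3, and 3 (2.31%) were found, where chance gives about 1 in 20 groups. The level of Mir1941 in Irak1-/- array 3 was 6.44 while the other Irak1-/- arrays lay at 3.84 to 4.26, so the gap was 0.839 of the range of the group and past the critical value for 4 samples. The level of Mir16-2 in wt array 2 was 5.32 while the other wt arrays lay at 4.48 to 4.55, a gap of 0.913 of the range. Mir23b read 5.26 in wt array 3 and 3.92 to 4.07 in the other wt arrays, a gap of 0.890 of the range.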

How the results depend on the processing

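In every alternative run, 0 of the microRNA genes were called by limma, and so were 0 of the listed processing, host and target genes. With every probe set fitted on its own, 0 were called among all probe sets as well. The lowest adjusted p of a microRNA gene was 0.0784, without replicate 3. With no replicate block, 15 of 159 microRNA genes (9.43%) had an unadjusted p under 0.05, where 5.09% of all genes did. With the pairing the count was 24 (15.1%), where 6.70% did. Under the 60th percentile filter it was 17 of 86 (19.8%), where 6.49% did. By the other alternatives with all 8 arrays it was 20 to 26 (11.8% to 16.4%), where 5.96% to 7.16% did. With a pair left out it was 25 to 33 (15.7% to 20.8%), where 5.61% to 6.75% did. It was 19 (11.9%) without the Irak1-/- array of replicate 3 and with no replicate block, where 5.17% did. Genes moved 1 way in every pair numbered 45 to 52 with a pair left out, against 29, since only 3 pairs then had to agree in direction. The median difference stayed between -0.012 and 0.026, on both sides of 0. The count of detected genes was 198 at a threshold of 3.5 and 118 at 4.5, and 160 to 173 under the other choices. The 8 genes with the smallest p kept their sign under every alternative, and Mir15a was at 0.32, against 0.51, without the Irak1-/- array of replicate 3 and with no replicate block. Their adjusted p values ran from 0.108 to 0.992.

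For the 65 microRNA genes named for their own values or families, 848 of 880 alternative values kept their sign and their side of the threshold, none crossed the threshold, and 32 changed sign. With a pair left out, the differences that changed sign ran over -0.47 to 0.15 for Mir107, -0.17 to 0.28 for Mir124a-2, -0.34 to 0.21 for Mir149, -0.33 to 0.26 for Mir17, -0.020 to 0.46 for Mir18, -0.30 to 0.18 for Mir181d, -0.18 to 0.20 for Mir193b, -0.31 to 0.037 for Mir1943, -0.12 to 0.19 for Mir200a, -0.13 to 0.10 for Mir212, -0.37 to 0.19 for Mir23a, -0.42 to 0.0029 for Mir27a, -0.28 to 0.15 for Mir30d, -0.64 to 0.020 for Mir31, -0.080 to 0.050 for Mir3473d, -0.13 to 0.30 for Mir680-3, -0.33 to 0.51 for Mir7b and -0.19 to 0.012 for Mir9-3. Without the Irak1-/- array of replicate 3 and with no replicate block, values of the opposite sign were found for Mir17 at 0.16, Mir181d at 0.11, Mir23b at -0.082, Mir124a-2 at -0.045, Mir107 at 0.045, Mir194-2 at 0.032, Mir1943 at 0.024. The cause was not tested. The precision of each difference is limited by 4 arrays a group.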
